A study of Mus musculus with 2 samples.

Results

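Fc gamma receptors (FcγRs) bind the constant region of IgG antibodies. The mouse genes are *Fcgr1*, *Fcgr3* and *Fcgr4*, which encode the activating receptors FcγRI, FcγRIII and FcγRIV, and *Fcgr2b*, which encodes the inhibitory receptor FcγRIIB. *Fcer1g* encodes the common γ chain, the partner that all the activating receptors signal through. These 5 genes of the 31053 in the matrices were chosen by name, from the receptor family, and all 5 were detected in both libraries. Cells were assigned to 7 immune cell types by marker genes, and the receptors were followed in each as CPM, the number of the gene's molecules per 1000000 molecules of that type, and as the ratio of activating to inhibitory transcripts.

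Immune complexes that cross-link an activating FcγR lead to phosphorylation of the ITAM of the γ chain, to recruitment of the kinase Syk, and in phagocytes to uptake of the opsonized target and release of cytokines. FcγRIIB carries an ITIM in its own tail, which recruits the phosphatase SHIP1, and it opposes the activating receptors when both are engaged on 1 cell. Macrophages and monocytes express receptors of both kinds, B cells carry FcγRIIB as their only classical FcγR, NK cells use FcγRIII for antibody-dependent killing, and in tumors the balance of these receptors sets the threshold at which phagocytes respond to antibody-coated cells.

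The data are 1 droplet scRNA-seq library from control mice labeled PBS and 1 from mice given 10.5 mg of creatine intraperitoneally per day. Both were made from wild-type C57BL/6J mice, which per the methods were males 8 to 12 weeks old, bearing subcutaneous tumors of B16-OVA, a mouse melanoma line that expresses ovalbumin. Tumors were taken on day 14, 4 were pooled per library, live CD45.2+ tumor-infiltrating immune cells (TIIs) were sorted, and 10000 cells were loaded for each group; other passages of the study give another harvest day and another number of mice. The protocol entry of the PBS library describes the creatine injection although its title and treatment say otherwise, so each direction below relies on the latter.

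After removal of cells with more than 25% mitochondrial molecules, the control library held 7241 cells and 79319769 unique molecular identifiers (UMIs, each marking 1 captured mRNA), and the creatine library 6229 cells and 72091124 UMIs. The median depth was 7688 and 8475 UMIs per cell, and 30 cell barcodes occurred in both libraries. Each group is a single pooled library without replicates, and nothing could be tested. The 95% intervals given are exact and cover counting error only. Those of levels and ratios take each UMI as independent although UMIs come in cells, so they leave out the sampling of cells and can be too narrow. Differences between mice, tumors or library preparations cannot be told apart from an effect of creatine. In the text, higher or lower means that the interval of the log2 ratio of creatine to control lies on 1 side of 0.

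A cell entered a gate when at least 3 markers of 1 cell type were detected and those of no other lineage were prominent. Macrophages, both kinds of monocytes and all dendritic subsets counted as 1 lineage, so markers of 1 of these types did not exclude a cell from another. The macrophage gate held 970 control and 348 creatine cells, the classical monocyte gate 626 and 779, and the nonclassical monocyte gate 67 and 141. Of the macrophages, 475 and 164 had fewer than 3 markers of every other type. The dendritic gate (233 and 108 cells) joined cDC1s, cDC2s and *Ccr7*+ DCs, and the NK gate held 734 and 1186 cells. Neutrophils (46 and 24 cells) and B cells (34 and 42 cells) were few. In both libraries, every marker of a type was detected in its own gate. Macrophages were deeper in the creatine library, with a median of 21687 UMIs per cell against 13865. The T cell gate (3692 and 3015 cells) served as the measure of background, since T cells are not known as a source of the activating receptors or *Fcgr2b* at the levels of phagocytes, while free RNA from other cells gives UMIs in any droplet.

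*Fcgr2b*, *Fcgr4*, *Fcgr3* and *Fcer1g* lie within 275749 bases of chromosome 1, and *Fcgr1* lies on chromosome 3. In the mm10 (GRCm38) annotation, *Fcgr2b* occupies chr1:170958617-170976547 on the minus strand, *Fcgr4* chr1:171018920-171029761 on the plus strand, *Fcgr3* chr1:171051174-171064935 on the minus strand and *Fcer1g* chr1:171229572-171234365 on the minus strand. *Fcgr1* occupies chr3:96282909-96293969 on the minus strand. Their 3′ ends, from which the UMIs are read, are nearly distinct. Over the last 500 bases of the transcripts, none of the 50-base windows of *Fcgr1*, *Fcgr3*, *Fcgr4* or *Fcer1g* occurred in another gene, and 2.25% of those of *Fcgr2b* did. An antisense gene overlaps *Fcgr2b* in 1 exon, and it had 2 UMIs in each library beside 16434 and 9342 for *Fcgr2b*.

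The 250 bases before the transcription start are shown for 1 activating receptor on each chromosome, for the inhibitory receptor and for the γ chain. They were picked because *Fcgr1* and *Fcgr4* were higher and *Fcgr2b* was lower in dendritic cells of the creatine library, while the interval of *Fcgr3* held 0. Whether these sequences bear on that difference was not tested. The sequences are from RefSeq (GRCm38.p6), read 5′ to 3′ on the strand of the gene. Capitals mark GAGGAA, 1 form of sites for PU.1, a factor of myeloid cells. They also mark the core of the interferon-stimulated response element (a pair of GAAA separated by 2 bases, a form of sites for interferon regulatory factors). Both were searched on either strand.
Fcgr1 (chr3:96293970-96294219, minus strand): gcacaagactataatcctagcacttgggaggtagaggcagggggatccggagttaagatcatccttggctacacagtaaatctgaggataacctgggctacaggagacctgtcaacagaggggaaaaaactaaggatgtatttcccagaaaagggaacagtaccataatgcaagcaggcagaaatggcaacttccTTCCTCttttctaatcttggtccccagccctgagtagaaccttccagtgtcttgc
Fcgr4 (chr1:171018676-171018925, plus strand): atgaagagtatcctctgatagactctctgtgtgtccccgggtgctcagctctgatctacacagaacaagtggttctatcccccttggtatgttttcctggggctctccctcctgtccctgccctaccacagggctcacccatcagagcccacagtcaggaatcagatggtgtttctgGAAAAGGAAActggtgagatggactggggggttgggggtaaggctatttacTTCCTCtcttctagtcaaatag
Fcgr2b (chr1:170976072-170976321, minus strand): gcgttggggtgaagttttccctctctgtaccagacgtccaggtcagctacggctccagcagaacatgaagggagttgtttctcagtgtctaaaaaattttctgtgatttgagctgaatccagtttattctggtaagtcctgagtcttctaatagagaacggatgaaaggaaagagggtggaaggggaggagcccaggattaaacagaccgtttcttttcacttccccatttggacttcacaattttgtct
Fcer1g (chr1:171234350-171234599, minus strand): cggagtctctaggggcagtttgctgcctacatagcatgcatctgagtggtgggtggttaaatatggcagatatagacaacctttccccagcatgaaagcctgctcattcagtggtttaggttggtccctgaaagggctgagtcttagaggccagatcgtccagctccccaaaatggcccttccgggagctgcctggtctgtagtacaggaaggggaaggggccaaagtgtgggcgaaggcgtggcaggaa
*Fcgr1* held TTCCTC, which is GAGGAA on the other strand, from 55 to 50 bases before the start. *Fcgr4* held GAAAAGGAAA from 73 to 64 bases before the start and TTCCTC from 22 to 17. *Fcgr3* held TTCCTC in the windows of both its listed starts. Neither motif occurred in these windows of *Fcgr2b* or *Fcer1g*. Other forms of sites for these factors were not searched, so sites in those windows are not excluded. Among 27025 genes with such a window, 25.9% held GAGGAA and 3.46% held the response element core. These matches are letters only, and binding was not measured.

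Across the cell types, the phagocytes carried most of these transcripts. In the control library, macrophages held 57.5% of all *Fcgr1* UMIs, 61.9% of *Fcgr3*, 67.4% of *Fcgr4*, 55.8% of *Fcgr2b* and 53.3% of *Fcer1g*. In the creatine library, where macrophages were fewer, they held 43.4% to 57.0% of the 4 receptors. Classical monocytes followed, with 14.9% (*Fcgr4*) to 27.9% (*Fcgr1*) in the control library. Over all cells of a library, *Fcgr2b* stood at 207 CPM in the control and 129.6 CPM with creatine, and *Fcgr3* at 245 and 191. *Fcgr1* was at 139.5 and 113 CPM, and *Fcgr4* at 175 and 167. *Fcer1g* differed little, at 1107 and 1132 CPM, and NK cells held 6.0% of it in the control and 16.6% with creatine. Such totals mix the level per cell type with the number of cells of each type, which the gates separate.

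**Figure D1:**
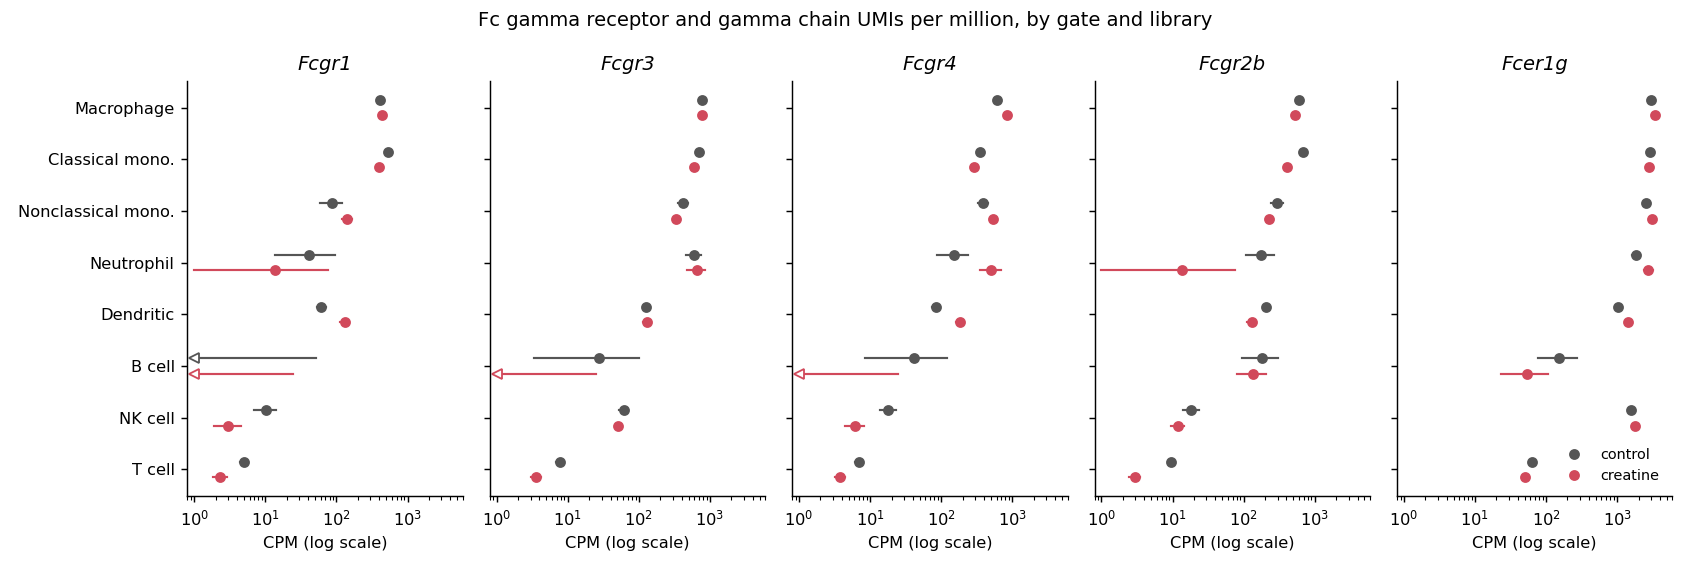
Level of each gene in CPM on a log axis, by gate (rows), in the control (grey) and creatine (red) library, with exact 95% Poisson intervals as lines. Open triangles mark 0 UMIs, and intervals that reach below 1 CPM are drawn to the edge. The 4 receptors lie above 50 CPM in both libraries in macrophages, both kinds of monocytes and dendritic cells, and *Fcer1g* also lies above 1500 CPM in NK cells.

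In macrophages, the activating receptor FcγRIV was the one that differed most between the libraries. *Fcgr4* stood at 604 CPM (interval 592 to 616) in the control and 842 CPM (823 to 863) with creatine (log2 ratio 0.48, 0.43 to 0.53). *Fcgr1*, which encodes the high-affinity receptor for monomeric IgG, was at 412 and 436 CPM, a log2 ratio of 0.08 (0.02 to 0.14). *Fcgr3*, which encodes the low-affinity receptor for immune complexes, was at 778 and 781 CPM, and its interval of -0.04 to 0.05 held 0.

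The inhibitory *Fcgr2b* was lower, at 593 CPM in the control and 526 CPM with creatine (log2 ratio -0.17, interval -0.23 to -0.12). *Fcer1g* was slightly higher, at 3028 and 3359 CPM. The order of the receptors within macrophages thus differed between the libraries. In the control library, *Fcgr3* was followed by *Fcgr4* and *Fcgr2b*, whose intervals overlapped, and then by *Fcgr1*. In the creatine library, *Fcgr4* was the highest, followed by *Fcgr3*, *Fcgr2b* and *Fcgr1*, and no intervals overlapped. A gene's UMIs count molecules captured at the 3′ end, so these levels are not scaled by length, and capture can differ between genes.

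None of the 5 genes passed a 1.5-fold difference in macrophages, where 10.4% of the 11384 genes with at least 20 UMIs did (3.49% higher and 6.9% lower). The higher *Fcgr4* had the same direction under all 10 alternative settings, with log2 ratios of 0.35 to 0.51, and so had the lower *Fcgr2b* (-0.33 to -0.06). The value of -0.06 came from macrophages with fewer than 3 markers of every other type (475 and 164 cells). There *Fcgr2b* stood at 529 and 507 CPM and *Fcgr4* at 606 and 771 CPM. No interval was computed for that gate, so *Fcgr2b* was not shown to be lower in it. The direction of *Fcgr1* depended on the setting (-0.03 to 0.31). Depth itself differs between these macrophages, and with each cell thinned to 2000 UMIs, 59.8% of control and 71.1% of creatine cells had a *Fcgr4* UMI, while 65% and 54.7% had a *Fcgr2b* UMI. In T cells at the same depth, the shares were 1.71% and 0.745% for *Fcgr4* and 1.88% and 0.915% for *Fcgr2b*. With macrophages thinned to 1000 UMIs, 37.3% of control and 46.7% of creatine cells had a *Fcgr4* UMI. *Fcgr2b* was then found in 42.9% (39.7% to 46.2%) and 40.4% (35.1% to 45.9%), and these intervals overlapped.

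In classical monocytes, the Ly6C-high cells that give rise to tumor macrophages, all 5 genes were lower in the creatine library. *Fcgr2b* had the widest gap, from 693 CPM (672 to 715) in the control to 406 CPM (392 to 420) in the creatine library (log2 ratio -0.77, -0.84 to -0.71). It was the 1 gene of the 5 past 1.5-fold, where 21.2% of 10563 genes were (9.42% higher and 11.8% lower). *Fcgr1* stood at 534 and 398 CPM, *Fcgr3* at 709.7 and 594, and *Fcgr4* at 356 and 290.6, which are log2 ratios of -0.43, -0.26 and -0.29. *Fcer1g* differed by little, at 2947 and 2847 CPM. All 5 genes kept their sign under every one of the 10 alternatives, and *Fcgr2b* ranged from -0.91 to -0.74.

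These gates did not hold the same mixture of cells in both libraries. The 8 macrophage markers were all detected in classical monocytes of both libraries, with a summed level of 2276 CPM in the control and 784 CPM with creatine. Among them *C1qa* stood at 549 and 139 CPM and *Mrc1* at 177 and 46.3, while the nonclassical marker *Ace* stood at 32.0 and 54.6. With only those monocytes that had fewer than 3 markers of every other type (315 control and 540 creatine cells), *Fcgr2b* was at 642 and 385 CPM, so that the log2 ratio of -0.74 was nearly as large. That selection was made after the values had been seen.

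After thinning to 2000 UMIs, 66.9% of control and 45.1% of creatine classical monocytes had a *Fcgr2b* UMI. For *Fcgr1* the shares were 55.7% and 45.0%, and for *Fcgr4* 37.1% and 30.4%. The 4 receptors together were found in 14.4% of control and 8.82% of creatine monocytes, and none of the 4 in 6.19% and 13.4%. Cells that carried both an activating receptor and *Fcgr2b* made up 61.0% of control and 40.3% of creatine monocytes, and cells with an activating receptor alone 26.9% and 41.4%. In macrophages, the cells with both were 60.6% and 52.2%, and those with an activating receptor alone 30.6% and 40.7%. The share of macrophages with none of the 4 was alike, at 4.43% and 4.66%. At 1000 UMIs per cell, macrophages with both were 34.7% and 33.8%, and those with an activating receptor alone 41.5% and 46.7%. Classical monocytes with both were then 35.8% and 21.7%, and those with an activating receptor alone 37.1% and 40.9%. For an activating receptor alone, the intervals overlapped in both gates. Nonclassical monocytes with an activating receptor alone were 44.6% and 42.6% at that depth.

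**Figure D2:**
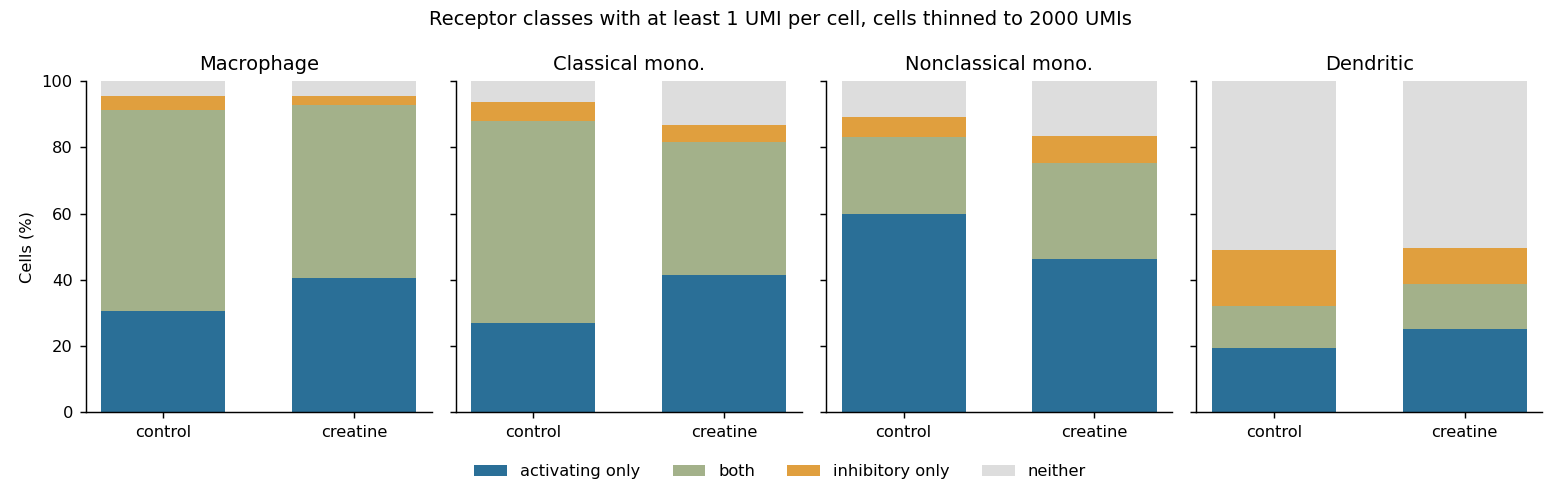
Share of cells (%, stacked bars) in which at least 1 activating receptor UMI, *Fcgr2b*, both or neither was found after each cell was thinned to 2000 UMIs, by gate and library. In macrophages and classical monocytes the blue segment (activating only) is larger in the creatine library, while in nonclassical monocytes it is smaller, at 60.0% in control and 46.4% in creatine cells.

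Nonclassical monocytes patrol vessels and are known in mice for high FcγRIV. Here *Fcgr4* stood at 387 CPM (326 to 455) in 67 control cells and 529 CPM (488 to 572) in 141 creatine cells, a log2 ratio of 0.45 (0.19 to 0.72). *Fcgr3* was lower, at 416 CPM in the control and 337 CPM in the creatine library (log2 ratio -0.31, -0.58 to -0.03). Its sign was the same under all 10 alternatives (-0.68 to -0.24). *Fcgr4* was close to *Fcgr3* in the control library and above it in the creatine library. *Fcgr1* was low, from 32 UMIs (85.9 CPM) to 164 UMIs (142 CPM), and its log2 ratio of 0.72 (0.17 to 1.32) was the 1 of 5 past 1.5-fold, beside 24.9% of 6817 genes (13.8% higher and 11.1% lower). The macrophage markers summed to 846 CPM in control nonclassical monocytes (7 of 8 detected, *Folr2* at 0) and to 171 CPM in creatine ones (8 of 8). With only cells of fewer than 3 markers of every other type (51 and 89), *Fcgr4* stood at 434 and 461 CPM (log2 ratio 0.088) and *Fcgr1* at 63.7 and 71.5 CPM (0.17), so that *Fcgr1* was no longer past 1.5-fold. *Fcgr3* in those cells stood at 378 and 235.5 CPM.

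*Fcgr2b* in these cells stood at 298 and 231 CPM (log2 ratio -0.37, -0.69 to -0.04), and *Fcer1g* at 2545 and 3086 CPM (0.28). A few cells carried much of the signal. Of the 164 *Fcgr1* UMIs in the creatine library, 24 came from 1 cell and 50% from the 9 cells with the most. With each cell thinned to 2000 UMIs, *Fcgr2b* turned to a log2 ratio of 0.09, and the shares of cells with a *Fcgr4* UMI were 46.2% and 50.7%, with wide intervals of 33.7% to 59.0% and 42.1% to 59.3%.

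In dendritic cells, which present antigen taken up in immune complexes, *Fcgr1* and *Fcgr4* were higher and *Fcgr2b* was lower in the creatine library. *Fcgr4* stood at 84.0 CPM (74.5 to 94.4) in the control and 182 CPM (161 to 204) with creatine (log2 ratio 1.11, 0.87 to 1.36). *Fcgr1* stood at 61.4 and 131 CPM, a log2 ratio of 1.09 (0.80 to 1.38). *Fcgr2b* was the highest of the 4 in the control library, at 207 CPM (192 to 223), and stood at 129.6 CPM (112 to 149) in the creatine library (log2 ratio -0.68, -0.91 to -0.45).

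*Fcgr3* was at 126 and 131 CPM, and its interval of -0.20 to 0.30 held 0. *Fcer1g* stood at 1016 and 1433 CPM (log2 ratio 0.50). Past 1.5-fold were 2 of the 5 genes on the higher side and 1 on the lower, where 20.2% of 9406 genes were (8.99% higher and 11.2% lower). The opposite directions of *Fcgr4* and *Fcgr2b* were the same under all 11 alternatives, at 0.77 to 1.45 and -1.08 to -0.48. *Fcgr1* had log2 ratios of 0.78 to 1.41 in all but 1 of them and 0.13 with each cell thinned to 2000 UMIs.

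The dendritic subsets differed in their levels. In cDC2s, *Fcgr2b* was at 301 and 177 CPM, *Fcgr4* at 117 and 220.2, *Fcgr1* at 87.7 and 159 and *Fcgr3* at 202 and 165. In cDC1s, which held 41 to 137 UMIs of each receptor, *Fcgr4* was at 51.3 and 139.6 CPM and *Fcgr2b* at 112 and 95.6, with an interval of the log2 ratio of -0.68 to 0.22. *Fcer1g* in cDC1s stood at 377 and 1006 CPM, a log2 ratio of 1.42 (1.24 to 1.59), against 1560.4 and 1928 CPM in cDC2s. Of the 5 genes, 4 were past 1.5-fold in cDC1s, all higher (beside 26.9% of 7325 genes, 13.3% higher and 13.7% lower). *Fcgr3*, which was 1 of these, stood at 28.7 CPM in both libraries in cDC1s with fewer than 3 markers of every other type (49 and 27 cells). The classical monocyte markers summed to 390.2 and 898 CPM in the cDC1 gate (6 and 5 of 7 detected, *Vcan* at 0 in both and *F13a1* at 0 with creatine), and *Ly6c2* stood at 32.6 and 244 CPM. In cDC2s 2 genes were higher and 1 lower, beside 26.0% of 7947 genes (12.9% higher and 13.1% lower).

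The *Ccr7*+ DCs, the migratory form, were 41 control and 15 creatine cells. *Fcgr4* there had 11 and 36 UMIs and *Fcgr2b* 27 and 15. Of the 5 genes, 4 were past 1.5-fold higher, beside 37.0% of 3454 genes (20.4% higher and 16.7% lower). In these cells the macrophage markers stood at a summed 147 CPM in the control and 1008 CPM with creatine (6 of the 8 detected in each), and *C1qa* at 38.7 and 238 CPM. Restricted to cells with fewer than 3 markers of every other type, they held 21 and 4 activating UMIs, of which 0 in the creatine library were of *Fcgr4*. In the whole dendritic gate, the macrophage markers summed to 386 and 422 CPM (8 and 7 of 8 detected, *Folr2* at 0 in the creatine library), and the classical monocyte markers to 493 and 1059 CPM (7 of 7 in both).

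The receptors of dendritic cells were also spread unevenly. In the creatine library, 9 of the 108 cells held 50% of the 280 *Fcgr4* UMIs, and in the control library 15 of 233 held 50% of 283. At 2000 UMIs per cell, *Fcgr4* was found in 11.7% of control cells (7.85% to 16.5%) and 19.4% of creatine cells (12.3% to 28.4%), and *Fcgr2b* in 29.4% (23.6% to 35.8%) and 24.3% (16.4% to 33.7%). These intervals overlap. With only cells of fewer than 3 markers of every other type (171 and 71), *Fcgr4* stood at 61.7 and 157 CPM, *Fcgr2b* at 160.1 and 75.7 CPM, and *Fcgr3* at 96.7 and 58.6 CPM.

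**Figure D3:**
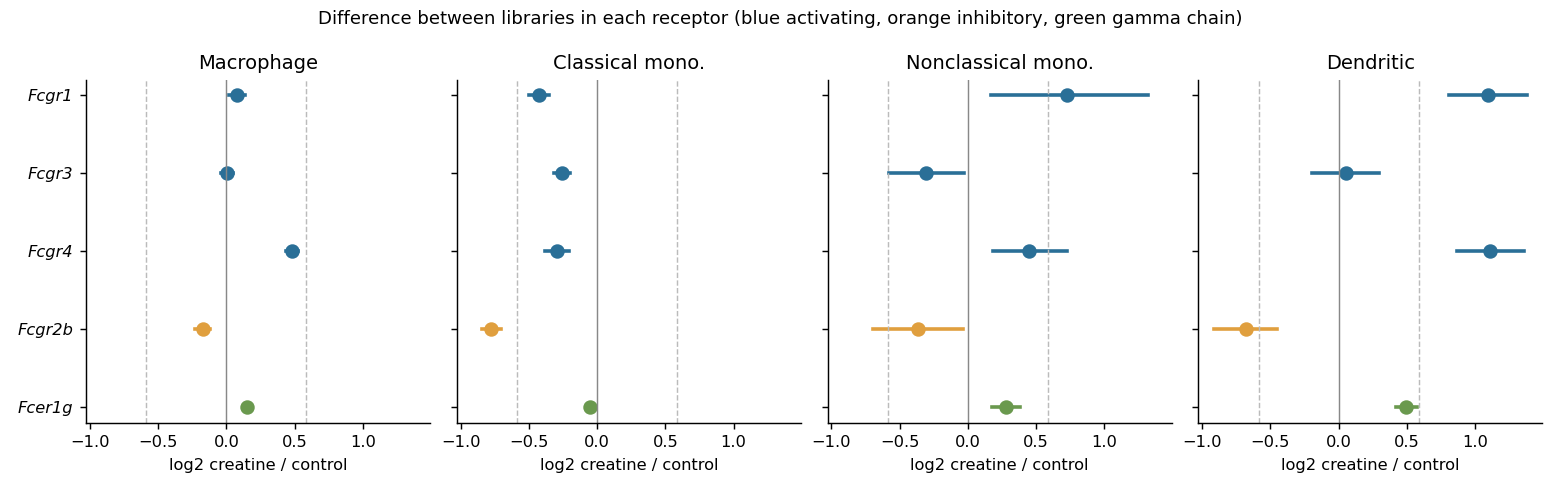
Log2 ratio of creatine to control CPM (points) with exact 95% intervals (lines) for the 3 activating receptors (blue), *Fcgr2b* (orange) and *Fcer1g* (green) in 4 gates; dashed lines mark 1.5-fold. *Fcgr2b* lies left of 0 in all 4 panels, from -0.77 to -0.17, while *Fcgr4* lies right of 0 in all but classical monocytes.

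The ratio of activating to inhibitory UMIs is not affected by the scale of a library, since all 4 genes are counted in the same cells. It was higher in the creatine library in 5 of the 6 gates that had such a ratio in both. Among these 5 are neutrophils, whose creatine ratio rests on 1 *Fcgr2b* UMI. In macrophages the ratio was 3.02 (27710 to 9163 UMIs) in the control and 3.91 (16754 to 4280) with creatine, a log2 difference of 0.37 (0.31 to 0.43). In classical monocytes it was 2.31 and 3.16 (log2 difference 0.45, 0.38 to 0.53), and in nonclassical monocytes 2.98 and 4.36 (0.55, 0.17 to 0.92). The last did not hold when each cell was thinned to 2000 UMIs, which gave -0.065.

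Dendritic cells had the lowest ratio of the phagocytes in the control library, at 1.31 (1.18 to 1.45), and stood at 3.42 (2.92 to 4.02) in the creatine library, a log2 difference of 1.39 (1.11 to 1.66). The ratios were 1.19 and 3.56 in cDC1s and 1.36 and 3.08 in cDC2s, and their intervals did not overlap between the libraries. In *Ccr7*+ DCs they were 1.00 and 5.60, from 27 to 27 and 84 to 15 UMIs, but with only cells of fewer than 3 markers of every other type they were 1.05 (21 to 20 UMIs) and 2.0 (4 to 2 UMIs).

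Each activating receptor can be set against *Fcgr2b* alone. In macrophages the ratio of *Fcgr4* to *Fcgr2b* was 1.02 and 1.6, that of *Fcgr1* 0.695 and 0.829 and that of *Fcgr3* 1.31 and 1.48. In classical monocytes the 3 ratios differed more evenly, with log2 differences of 0.35 (*Fcgr1*), 0.52 (*Fcgr3*) and 0.48 (*Fcgr4*). In dendritic cells they were 1.77 for *Fcgr1* and 1.79 for *Fcgr4* but 0.73 for *Fcgr3*. Per γ chain transcript, activating receptors were at 0.543 and 0.450 UMIs in classical monocytes and 0.592 and 0.613 in macrophages.

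The T cell gate, taken as background, had ratios of 2.08 (831 to 399 UMIs) and 3.29 (372 to 113). That is also higher with creatine, by a log2 difference of 0.66 (0.30 to 1.02). Its receptor levels were at most 9.43 CPM in the control and 3.74 CPM with creatine. With the T cell level of the same library subtracted, the log2 differences of the ratio were 0.37 in macrophages, 0.45 in classical monocytes, 0.54 in nonclassical monocytes and 1.43 in dendritic cells.

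**Figure D4:**
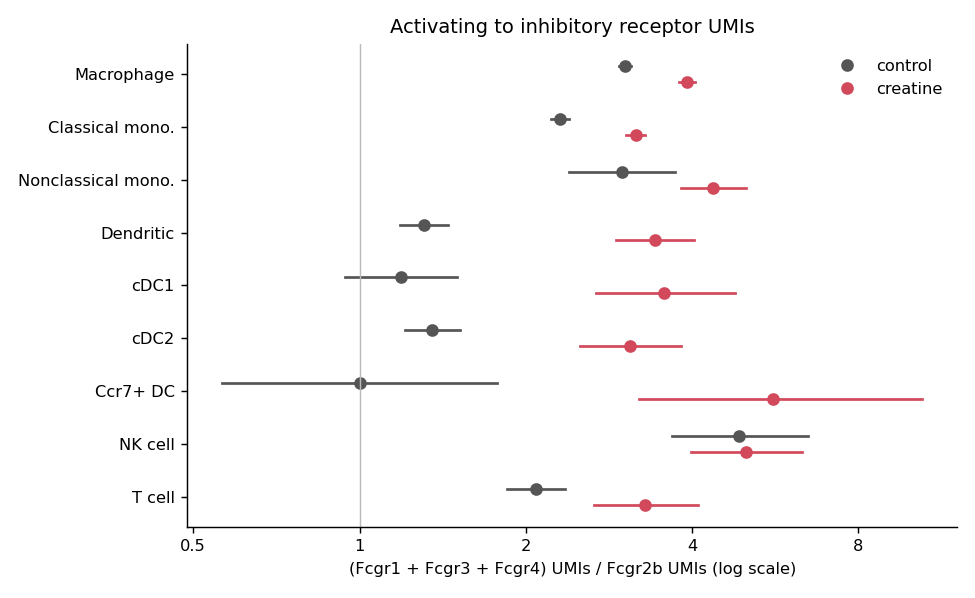
Ratio of activating (*Fcgr1*, *Fcgr3* and *Fcgr4*) to inhibitory (*Fcgr2b*) UMIs on a log axis, by gate, in the control (grey) and creatine (red) library, with exact 95% intervals. The creatine points lie to the right in every gate drawn, and the intervals overlap only in NK cells (4.85 and 5.0). Neutrophils and B cells, with 1 or fewer UMIs of a kind in a library, are not drawn.

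Neutrophils carried *Fcgr3* and *Fcgr4* and hardly any *Fcgr1*. *Fcgr3* was at 598 CPM (72 UMIs) in the control and 648 CPM (48 UMIs) with creatine, which is near the level in macrophages. *Fcgr4* was at 149 CPM (18 UMIs) and 499 CPM (37 UMIs), a log2 ratio of 1.74 (0.89 to 2.64), and *Fcer1g* at 1852 and 2753 CPM (0.57). *Fcgr1* had 5 UMIs and 1 UMI. *Fcgr2b* had 21 UMIs in the control, of which 13 came from 1 cell, and 1 UMI in the creatine library. The activating to inhibitory ratio of 4.52 in the control thus rests largely on that cell, and the ratio of 86.0 with creatine on that 1 UMI. Of the 37 *Fcgr4* UMIs, 12 came from 1 cell, and of the 204 *Fcer1g* UMIs in the creatine library, 53 came from 1 cell. Of the 4 genes with enough UMIs, 1 was past 1.5-fold higher and 1 lower, beside 40.3% of 1649 genes (18.3% higher and 22.1% lower).

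NK cells expressed the γ chain strongly and *Fcgr3* weakly. *Fcer1g* was at 1565 CPM in the control and 1767 CPM with creatine, and after thinning it was found in 93.9% and 95.3% of the cells. *Fcgr3* was at 61.5 and 50.8 CPM, beside 7.68 and 3.61 CPM in T cells, and after thinning was found in 10.7% and 11.3% of NK cells against 1.71% and 1.15% of T cells.

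*Fcgr1*, *Fcgr4* and *Fcgr2b* in NK cells stood at 10.1, 17.8 and 18.4 CPM in the control and 3.0, 6.12 and 12 CPM in the creatine library. Those levels were nearer to the T cells, which had 5.03 and 2.31 CPM of *Fcgr1*, 6.92 and 3.74 CPM of *Fcgr4* and 9.43 and 2.94 CPM of *Fcgr2b*. All 3 were past 1.5-fold lower in NK cells, where 11.5% of 10426 genes were past it (5.08% higher and 6.46% lower). *Fcgr2b* was not past it in cells with fewer than 3 markers of every other type (14.6 and 12.2 CPM), and thinning turned its log2 ratio to 0.11. In the control library 1 cell gave 11 of the 34 *Fcgr1* UMIs, 1 gave 17 of the 60 *Fcgr4* UMIs and 1 gave 15 of the 62 *Fcgr2b* UMIs. The summed macrophage markers stood at 184 and 67.4 CPM in NK cells (8 of 8 detected in both).

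In B cells *Fcgr2b* had more UMIs than the activating receptors together. It had 13 UMIs in the control (180.2 CPM) and 20 with creatine (134 CPM), and it was found in 23.5% and 28.6% of the cells, against 7.64% and 3.22% of the deeper T cells. The activating receptors together had 5 UMIs in the control and 0 with creatine, where the interval of a count of 0 reaches up to 24.7 CPM. The ratio of activating to inhibitory UMIs was 0.385 (0.107 to 1.15) in the control and 0 (up to 0.203) with creatine. The activating receptors summed to 69.3 CPM in control B cells, beside 19.6 CPM in control T cells. The macrophage markers summed to 402 CPM in control B cells (6 of 8 detected, *Trem2* and *Folr2* at 0) and 80.5 CPM with creatine (5 of 8, *Ms4a7*, *Trem2* and *Folr2* at 0), and their part in these levels was not tested. *Fcer1g* had 11 and 8 UMIs. Only *Fcgr2b* had enough UMIs to be set against 1.5-fold and it was not past it, beside 31.9% of 1465 genes (16.0% higher and 16.0% lower).

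Across the 7 gates and 2 libraries, the activating receptors followed each other and the γ chain more closely than they followed *Fcgr2b*. Over these 14 points, Pearson's r of log2(CPM + 1) was 0.93 between *Fcgr3* and *Fcgr4* and 0.91 between *Fcgr3* and *Fcer1g*, but 0.33 between *Fcgr3* and *Fcgr2b* and 0.11 between *Fcgr2b* and *Fcer1g*. Among 8147 other genes, those most like *Fcgr4* were *Tlr13* (r = 0.98), *Cd300c2* and *Atf3*, those most like *Fcgr3* were *Sptlc2* (0.98), *Ppt2* and *Srgap2*, and those most like *Fcgr1* were *Trafd1* (0.97), *Mcub* and *Slamf8*. *Fcgr2b* was most like *Ctss* (0.94), *Renbp* and *Hmox2*, and *Fcer1g* was most like *Fam118b* (0.96), *Frrs1* and *Tyrobp*, which encodes the adapter DAP12. In B cells each activating receptor had 3 or fewer UMIs per library, and *Fcgr2b* had 1 UMI in creatine neutrophils. How much such points weigh in r was not tested. The points of a library also share its depth and its free RNA, so these values are a description.

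The transcripts of the ligand and of the pathway were read from lists. The 4 IgG heavy chain genes had fewer than 20 UMIs each in every phagocyte gate. In B cells, *Ighg2b* had 0 UMIs in the control and 22 with creatine, which is 3.55-fold higher when 0 is taken as 3 counts over the gate. *Fcgrt*, the neonatal Fc receptor that recycles IgG, was at 132 and 134 CPM in macrophages and at 88.6 and 42.4 CPM in nonclassical monocytes (log2 ratio -1.06). Of the Fc receptor-like genes in macrophages, *Fcrl5* stood at 5.05 and 0.860 CPM (78 and 7 UMIs), and in dendritic cells *Fcrla* at 12.8 and 5.19 CPM.

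Signaling genes downstream of the receptors were read next. None of the 21 activating signaling genes was past 1.5-fold in macrophages, beside 10.4% of all genes, and their median log2 ratio was 0.13 against -0.03 for all genes tested. In classical monocytes, 7 of 21 were higher and 4 lower, where 9.42% of all genes were higher and 11.8% lower, and the median was 0.30 against 0.01 for all genes. The log2 ratios of the 21 ran from -1.13 to 0.93. Among the higher genes were the Src-family kinases *Lyn* (432 and 711 CPM) and *Fgr* (174 and 331 CPM), which were picked with their values in view. The 4 lower genes are not named here. *Syk*, the kinase that docks on the γ chain, was at 133 and 164 CPM in classical monocytes and 137 and 121 CPM in macrophages. In dendritic cells 4 of 20 were higher and 1 lower, beside 8.99% of all genes higher and 11.2% lower. In cDC1s 7 of 16 were higher and none lower, beside 13.3% higher and 13.7% lower. Of 18 in cDC2s, 4 were higher and 1 lower, beside 12.9% higher and 13.1% lower. *Ccr7*+ DCs had 4 of 12 higher and 2 lower, beside 20.4% higher and 16.7% lower.

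The inhibitory pathway was read in the same way. *Inpp5d*, which encodes SHIP1, the phosphatase of the FcγRIIB pathway, was at 142 and 146 CPM in macrophages, 128 and 128 CPM in classical monocytes and 137 and 129 CPM in dendritic cells, and all 3 intervals of its log2 ratio held 0. Of the 10 inhibitory signaling genes, none was past 1.5-fold in macrophages, 1 was higher and 1 lower in both classical and nonclassical monocytes, and 2 were higher in dendritic cells, 4 in cDC1s and 3 in cDC2s, with none lower in these. The shares of all genes past 1.5-fold higher were 9.42% in classical monocytes, 13.8% in nonclassical monocytes, 8.99% in dendritic cells, 13.3% in cDC1s and 12.9% in cDC2s. In nonclassical monocytes *Cblb*, a ubiquitin ligase, was lower (158 and 96.0 CPM, log2 ratio -0.72), as was *Milr1*, an inhibitory receptor (121 and 73.5 CPM, -0.72).

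Other inhibitory receptors were compared beside *Fcgr2b*. Of the 13, 2 were past 1.5-fold lower in macrophages and none higher, where 6.9% of all genes were lower, and the median log2 ratio was -0.07. These 2 were sialic acid receptors, *Siglece* (17.4 and 10.8 CPM, log2 ratio -0.69) and *Cd33* (60.2 and 39.7 CPM, -0.60). In dendritic cells the same 2 genes were past 1.5-fold lower, beside 11.2% of all genes, *Siglece* with 49 and 3 UMIs and *Cd33* at 20.8 and 11 CPM. The dendritic subsets differed, and in cDC1s 5 of 9 were higher and none lower (median 0.69), beside 13.3% of all genes higher. Of 13 in cDC2s, 2 were lower and none higher, beside 13.1% lower. *Ccr7*+ DCs had 2 of 4 higher and none lower, beside 20.4% higher. Nonclassical monocytes had 2 of 11 higher and 2 lower, beside 13.8% higher and 11.1% lower. In classical monocytes 3 were lower and none higher, beside 11.8% of all genes lower, with a median of -0.28, led by *Cd72* (38.2 and 8.26 CPM, -2.21). *Pirb*, which is expressed with *Fcgr2b* on myeloid cells, was at 282 and 307 CPM in macrophages and 377 and 460 CPM in classical monocytes.

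Of the listed complement receptors, 4 of 7 were past 1.5-fold lower in classical monocytes and none higher, where 11.8% of all genes were lower (median log2 ratio -0.99 against 0.01 for all genes). *C3ar1* stood at 391 and 102 CPM and *C5ar1* at 130.4 and 41.1 CPM. The macrophage markers in this gate summed to 2276 CPM in the control and 784 CPM with creatine. The part of that mixture in the pathway values of classical monocytes was not tested. In macrophages 1 of 8 was lower, *Vsig4*, a phagocytic receptor of resident macrophages, with 75 UMIs in the control and 0 with creatine. When 0 is taken as 3 counts over the gate, *Vsig4* was 13.2-fold lower. C-type lectins that also signal through the γ chain differed by gate, with *Clec4d* at 120.2 and 33.9 CPM in classical monocytes (log2 ratio -1.82) and *Clec4e* at 5.94 and 27.9 CPM in dendritic cells (2.23). Of the 43 *Clec4e* UMIs of creatine dendritic cells, 31 came from the 15 *Ccr7*+ DCs, where the control had 0. Those 15 cells also had macrophage markers at a summed 1008 CPM. *Hcst*, an adapter related to the γ chain, was at 46.6 and 29.2 CPM in dendritic cells.

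The list of interferon-γ-induced genes was included because interferon-γ is known to induce *Fcgr1* and *Fcgr4*. Of its 10 genes, 9 were past 1.5-fold higher in macrophages, 8 in classical monocytes, 10 in nonclassical monocytes and 9 in dendritic cells, and none was lower. Of all genes, 3.49%, 9.42%, 13.8% and 8.99% were past 1.5-fold higher in these gates. The medians of the log2 ratio were 0.99, 0.96, 1.63 and 0.92, against -0.03, 0.01, -0.01 and 0.02 for all genes tested. In macrophages, *Gbp5* stood at 45.4 and 130.2 CPM, *Socs1* at 46.2 and 126 CPM and *Gbp2* at 331 and 708 CPM.

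In classical monocytes, the same list was led by *Gbp5* (log2 ratio 1.45), *Socs1* (1.01), *Irf1* (1.00) and *Gbp3* (0.99), although *Fcgr1* and *Fcgr4* were lower there. In nonclassical monocytes it was led among genes with enough UMIs by *Gbp5* (2.98), *Gbp3* (2.66), *Socs1* (2.05) and *Gbp2* (1.81), and in dendritic cells by *Gbp2* (1.21), *Socs1* (1.2) and *Igtp* (1.08). The part of interferon-γ in the receptor levels was not tested.

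**Figure D5:**
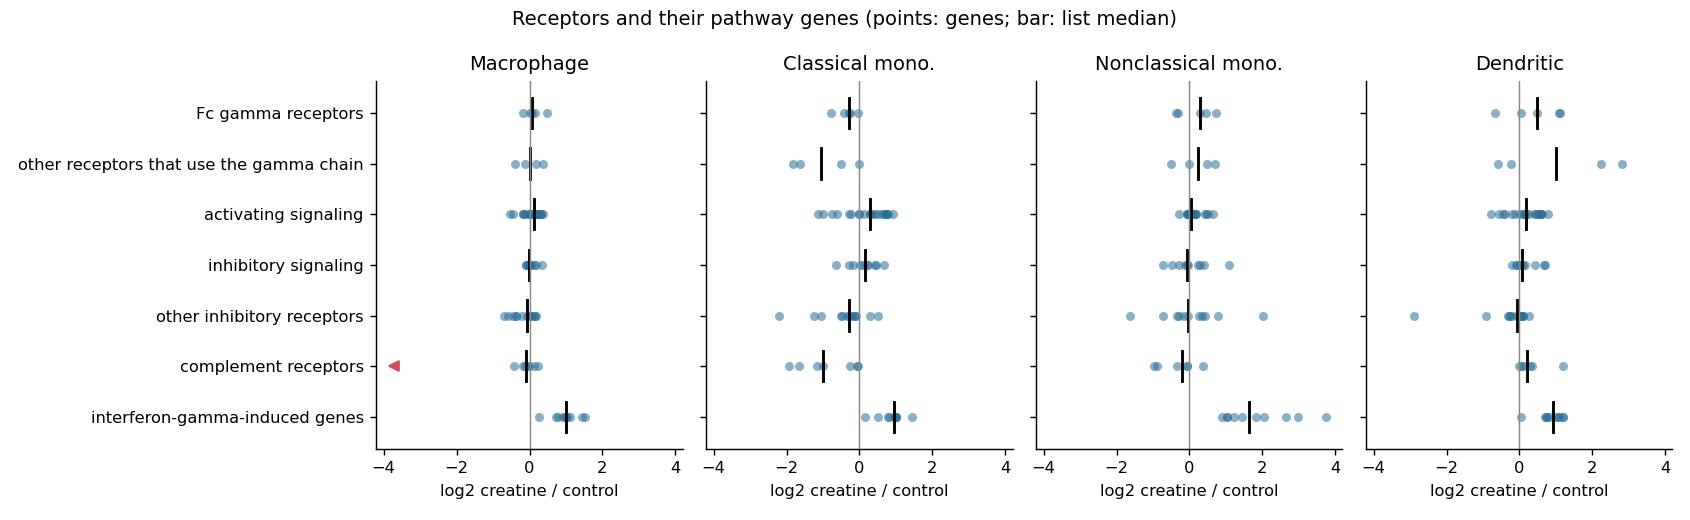
Log2 ratio of creatine to control CPM for each gene (points) of the receptors and their pathway lists, by gate, for genes with at least 20 UMIs over both libraries. Black bars are list medians. The red triangle is *Vsig4*, which had no UMI in the creatine library and is drawn with that 0 taken as 3 counts. The interferon-γ-induced genes lie right of 0 in all 4 gates, with medians from 0.92 to 1.63, and the signaling lists lie around 0 in macrophages.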

How the data were processed

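Droplet scRNA-seq (10x Genomics 3′ chemistry) was performed on 1 control and 1 creatine library. Per the submitters' processing notes, Cell Ranger 3.0.2 and the mm10 build were used by the authors, who deposited raw UMI counts per gene and called cell for each library, with no normalization; the gene and barcode lists beside them hold no measurement. Settings of the counting beyond these are not given in the sources used here.

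Cells over 25% mitochondrial UMIs were removed. No cell fell under the other limits, 300 UMIs and 100 detected genes. Of the rest, 6463 control and 5675 creatine cells were gated with 86 markers in 12 lists. A cell took the type with the highest share of its list detected, with at least 3 markers, and was left out when another lineage had at least 3 markers with at least 2 UMIs each. This can remove only those doublets of 2 lineages in which the other lineage reached that limit. Doublets below the limit or within a lineage can remain in the gates, and no doublet caller was run. The gate rule was set after the marker counts had been seen, and the gates can differ from the study's clusters. The members and lists were chosen with earlier results of these data known.

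UMIs were summed per gate and library and given as CPM with exact Poisson intervals, ratios with exact conditional intervals and shares of cells with Clopper-Pearson intervals, all at 95%. Genes with at least 20 UMIs over both libraries were compared at 1.5-fold. Named genes were the 5 receptors in every gate, up to 4 pathway genes with the largest rise and up to 4 with the largest fall in 4 gates (at least 50 UMIs, 1.5-fold, interval without 0), and the 3 genes most like each receptor by Pearson's r (at least 500 UMIs, no marker); 1 gene that the rule names is not reported here. *Syk*, *Lyn*, *Fgr*, *Inpp5d*, *Pirb*, *Fcgrt* in macrophages, *Ighg2b* and the neighbouring types' markers fall outside the rule and were picked with their values in view. Cells were thinned at random to 2000 UMIs for shares of cells, and to 1000 UMIs as an alternative. Alternatives were a stricter cell filter, scaling without mitochondrial and ribosomal protein genes, TMM factors (edgeR 4.0.16, R 4.3.3), equal weight of cells, a stricter gate, cells with markers of another lineage kept, cells over 2 times the median depth left out, thinning before summing, equal weights of the dendritic subsets and a minimum of 5 UMIs for lists. Gates of cells with fewer than 3 markers of every other type and subtraction of the T cell level were added after the data had been seen. Intervals were tried on simulated counts that were drawn as independent, without the clustering of UMIs in cells. That trial checks the calculation only and cannot show how well the intervals cover in these data. Positions are from GENCODE M21 and promoters from RefSeq. The versions were scipy 1.17.1, matplotlib 3.10.9, pandas 2.3.3 and numpy 2.4.6 under Python 3.11.15.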

Additional observations from a re-analysis of the deposited data

Results flagged for a closer look

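For 3 genes the difference between the libraries had opposite signs in 2 cell types, among gates where the gene stood at 5 times the T cell level or more in both libraries. *Fcgr1* was higher in the creatine library in dendritic cells (log2 ratio 1.09) and lower in classical monocytes (-0.43). *Fcgr4* was higher in neutrophils (1.74) and lower in classical monocytes (-0.29). *Fcer1g* was higher in neutrophils (0.57) and slightly lower in classical monocytes (-0.050). Genes were flagged only if the interval lay above 0 in 1 gate and below 0 in another. The gates named are the extremes on each side, so the opposite sides are a condition of the flag. With 1 library per group, the difference between cell types was not tested. Among the 24 creatine neutrophils, 1 cell gave 53 of the 204 *Fcer1g* UMIs, and the alternatives for *Fcer1g* in neutrophils ranged from 0.23 to 0.64.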

How the results depend on the processing

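No paired analysis was possible because each group is 1 library and the labels carry no replicate numbers. For the activating to inhibitory ratio, thinning to 2000 UMIs before summing gave log2 differences of -0.065 in nonclassical monocytes, where the sign reversed, 0.55 in classical monocytes and 1.02 in dendritic cells, and the gate of cells with fewer than 3 markers of every other type gave 0.25 in macrophages. All other alternatives kept the ratio within the main interval, although in NK cells, where that interval spans 0, the sign was kept in 2 of 8. For single genes, 268 alternative values lay within the main interval, 48 moved outside it and 7 reversed where the main interval did not hold 0: *Fcgr1* in macrophages (-0.032 without the deepest cells and -0.029 after thinning), *Fcgr2b* in nonclassical monocytes (0.094 after thinning), *Fcer1g* in B cells (0.80 with the stricter cell filter), and in NK cells *Fcgr3* (0.024) and *Fcgr2b* (0.11) after thinning and *Fcgr2b* with the T cell level subtracted (0.0089). Where the main interval held 0, the sign also changed for *Fcgr3* in dendritic cells (down to -0.72), neutrophils (-0.56) and macrophages (-0.15), *Fcgr1* in neutrophils (up to 0.68) and *Fcgr2b* in B cells (0.37). The causes were not tested. With a minimum of 5 UMIs, counts of pathway genes past 1.5-fold stayed within 1.5 times the main counts in macrophages, both kinds of monocytes and dendritic cells, but not in smaller gates (neutrophils 7 to 13 higher and 7 to 14 lower). Depth limits the neutrophil, B cell and *Ccr7*+ DC values most, since many rest on fewer than 50 UMIs.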
